A study of Canis lupus familiaris with 13 samples.

Results

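The genes described here are those that interferons switch on and those that build the MHC class I antigen-presentation machinery, measured in primary soft tissue sarcomas of dogs. They were taken from a list of 41 gene symbols, 29 for interferon-induced genes and 12 for class I genes, and every probe set (a group of short probes that reads 1 transcript on an Affymetrix array) with one of these symbols in the platform annotation was used. This gave 34 measured genes, 23 of the 29 interferon-induced and 11 of the 12 class I genes, among 15115 named genes, and 68 probe sets, 45 and 23 of them, among 42924. The other 7 genes (IFIT1, IFIT3, DDX58, OASL, GBP2, BST2 and DLA-12) had no probe set named here. DLA88 is the platform's spelling of DLA-88, matched through a RefSeq synonym, and 2 probe sets that carry both the DLA-64 and DLA88 names were left out. The samples were untreated primary tumours: 5 sarcomas of the metastatic group (MET1 to MET5) and 8 of the non-metastatic group (NM1 to NM8), for which no metastasis over at least 1 year was the defining condition. The labels give neither the breed, age and sex of the dogs nor the histological type and site of the tumours. Nothing in the labels says that each tumour came from a different dog, so a p-value here speaks of the spread among the samples alone.

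Interferons are secreted when cells sense foreign or misplaced nucleic acid, and they act on neighbouring cells through receptors that activate STAT and IRF transcription factors. These factors switch on a broad set of antiviral genes, among them nucleic acid sensors, the ubiquitin-like modifier ISG15, the MX GTPases and the oligoadenylate synthetases. Interferon, interferon-gamma above all, also raises the class I pathway, in which the immunoproteasome cuts proteins into peptides, the TAP transporter carries the peptides into the endoplasmic reticulum, and class I heavy chains with beta-2-microglobulin display them to cytotoxic T cells. In tumours these genes can be read in the cancer cells and in the macrophages, lymphocytes and vessels among them. Array values from whole tumours cannot tell fewer cells of a type from less RNA per cell.

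All values are log2 intensities as the authors deposited them, with sample medians of 6.71 to 6.94. Each gene is described by its probe set of highest mean unless another is named. Poly-A spike-in controls, bacterial RNAs added before labelling, gave signal in all 5 metastatic tumours and in NM5 to NM8, and none in NM1, NM3 and NM4. NM2 had spike-in signal with a 3′ minus 5′ gap of 3.54, where no other tumour reached 1 (highest 0.959). The 9 samples of like spike-in signal (MET1 to MET5 and NM5 to NM8) are therefore also compared alone. Where no spike-in RNA was present its probe sets read between 2.63 and 7.16, with a median of 4.45. Of the 34 members, 6 had a mean not above 7.16, the highest of these readings (EIF2AK2, IRF7, OAS3, HERC5, IFIT2 and ISG20). All 9 mesenchymal markers, among them VIM, COL1A1 and FN1, were measured. Their mean per tumour was 11.9 to 12.6 in metastatic and 11.9 to 12.7 in non-metastatic tumours. All 4 measured epithelial markers had means not above 7.16.

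No member gene differed between metastatic and non-metastatic tumours past the threshold. In limma's test over all 42924 probe sets, 0 of the 68 member probe sets passed an adjusted p of 0.05, while 4.9% of all probe sets did. At an unadjusted p under 0.05 there were 4 of 68 (5.88%), against 23.7% of all probe sets. The values of the 2 groups overlapped at every member probe set, whereas they did not overlap at 2.63% of all probe sets. The 4 were the STAT2 representative, 2 probe sets of IRF9 and a dim probe set of OAS1, and the smallest adjusted p among the 68 was 0.112. The median difference, metastatic minus non-metastatic, was 0.03 over the 23 interferon-induced genes, of which 12 were positive and 11 negative, and 0.29 over the 11 class I genes, of which 9 were positive and 2 negative. The median over all probe sets was 0.05. In the 9 samples of like spike-in signal the median differences were -0.04 and 0.09, and 0 of 68 probe sets passed, against 2.78% of all, with 3 of 68 (4.41%) at an unadjusted p under 0.05, against 20.2% of all. Standard errors of the differences ran from 0.10 to 0.86, so a missed threshold does not show that the groups were alike.

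**Figure D1:**
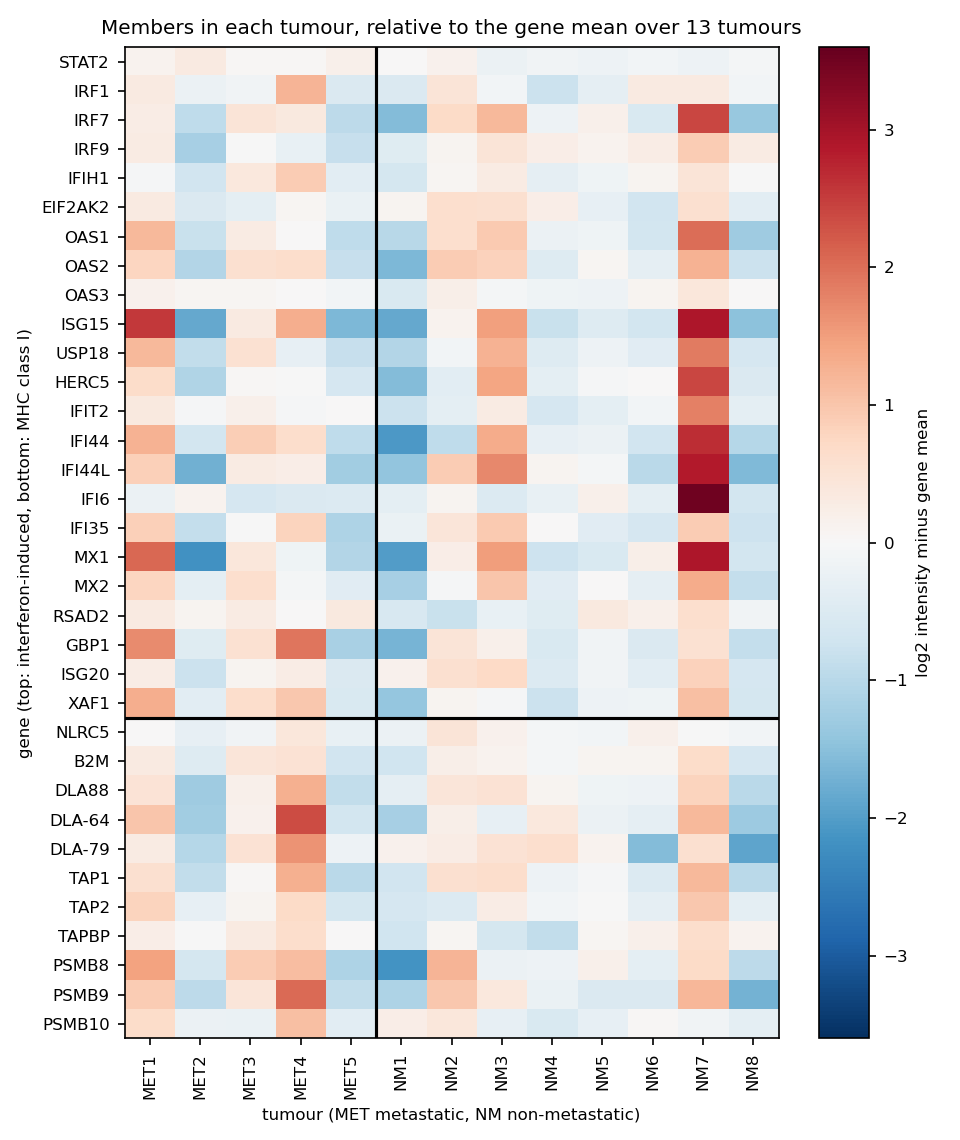
Each row is 1 of the 34 member genes and each column 1 tumour, metastatic left of the black line and non-metastatic right of it, and colour gives the log2 intensity minus the gene's mean over the 13 tumours. NM7 is red in most interferon-induced rows and MET4 in most class I rows, while MET2, MET5, NM1 and NM8 are mostly blue.

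The members varied widely from tumour to tumour. The standard deviation over the 13 tumours had a median of 0.80 for the interferon-induced genes and 0.74 for the class I genes, against 0.36 for all probe sets. It was above 1 for 8 of the 23 interferon-induced genes and 3 of the 11 class I genes. ISG15 had the highest, 1.63, followed by MX1 with 1.48, and 1.31% of all probe sets reached the spread of MX1. IFI44L (1.38) and IFI44 (1.28) came next. The lowest was that of STAT2, 0.16.

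The transcription factors of the pathway behaved unlike one another. IRF7, the factor that amplifies type I interferon production, read 6.33, 5.17, 6.53, 6.43 and 5.13 in MET1 to MET5, and 4.50, 6.07 and 8.49 as the lowest, median and highest non-metastatic tumours. Tumours of both groups lay at both ends, and the difference was -0.25 ± 0.58 (SE; limma adjusted p = 0.81). IRF1, a factor that interferon-gamma induces strongly and that acts on class I promoters, read 8.72, 8.21, 8.27, 9.64 and 7.89 in the metastatic tumours, against 7.64, 8.32 and 8.88 as the lowest, median and highest non-metastatic tumours. MET4 stood above all others, and the remaining metastatic tumours lay within the non-metastatic range, with a difference of 0.22 ± 0.28 (SE; limma adjusted p = 0.651). Without MET4 the IRF1 difference was -0.05.

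IRF9, the DNA-binding part of the complex that type I interferon activates, had the smallest p among the members. It read 9.09, 7.59, 8.77, 8.52 and 7.96 in MET1 to MET5, against 8.36, 9.04 and 9.70 as the lowest, median and highest non-metastatic tumours. MET2 and MET5 lay below every non-metastatic tumour, and the other 3 within their range. The difference was -0.65 ± 0.25 (SE), with a limma adjusted p of 0.145. A second IRF9 probe set gave -0.45 ± 0.16 (SE; limma adjusted p = 0.112) and correlated with the first at r = 0.94 over the 13 tumours, while the remaining, dim one gave -0.17 and r = 0.03. In the 9 samples of like spike-in signal IRF9 differed by -0.80 ± 0.31 (SE; limma adjusted p = 0.193).

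STAT2, the partner of IRF9 in that complex, was read by 5 probe sets, of which the one described here did not follow the other 4. It was nearly flat, at 10.23, 10.43, 10.14, 10.15 and 10.28 in MET1 to MET5, against 9.91, 9.99 and 10.27 as the lowest, median and highest non-metastatic tumours. MET2 and MET5 lay just above the non-metastatic range and the other 3 in its upper part, and the difference was 0.22 ± 0.10 (SE; limma adjusted p = 0.208). Its correlation with the other 4 lay between -0.47 and 0.01. Of those 4, 3 read highest in NM7, at 8.54, 8.48 and 8.60, where the flat probe set read 9.94, near its lowest value. The remaining one read 6.66 in NM7 and was lowest in MET4, at 6.10, so the 4 did not all move alike.

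The RNA sensors IFIH1 and EIF2AK2 varied less than most interferon-induced genes. Their standard deviations were 0.45 and 0.44, against a median of 0.80 for that list and 0.36 for all probe sets. IFIH1, which senses long double-stranded RNA, read 7.63 to 9.21 in metastatic tumours, highest in MET4, and 7.68 to 8.77 in non-metastatic tumours. EIF2AK2, the kinase that halts translation on double-stranded RNA, read 5.67, 4.85, 5.01, 5.42 and 5.12 in MET1 to MET5, against 4.67, 5.54 and 5.95 as the lowest, median and highest non-metastatic tumours. All its metastatic values lay inside the non-metastatic range, and all values within the range of probe sets without target. The difference was -0.24 ± 0.24 (SE; limma adjusted p = 0.556).

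The oligoadenylate synthetases make the messenger that activates RNase L, and OAS1, OAS3 and OAS2 lie next to each other in the RefSeq gene order. OAS1 read 9.98, 8.01, 9.10, 8.84 and 7.91 in MET1 to MET5, against 7.52, 8.63 and 10.83 as the lowest, median and highest non-metastatic tumours. NM7 was highest and MET1 next, and NM8 was lowest, with a difference of -0.07 ± 0.52 (SE; limma adjusted p = 0.942). OAS2 read 10.36, 8.55, 10.16, 10.23 and 8.76 in the metastatic tumours, against 7.97 to 10.85 in the non-metastatic ones. OAS3 was dim and ran only from 5.66 in NM1 to 6.61 in NM7.

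ISG15, the ubiquitin-like protein that is joined to other proteins after interferon, had the widest spread of the members. It read 11.48, 7.09, 9.26, 10.22 and 7.31 in MET1 to MET5, against 7.08, 8.36 and 11.84 as the lowest, median and highest non-metastatic tumours. Both groups held tumours near 7 and tumours above 10, which were MET1 and MET4 in the metastatic and NM3 and NM7 in the non-metastatic group. The means were 9.07 ± 1.88 (SD, n = 5) in metastatic and 8.83 ± 1.58 (SD, n = 8) in non-metastatic tumours, a difference of 0.24 ± 0.86 (SE; limma adjusted p = 0.88). The sign turned without MET1 (-0.36), MET4 (-0.05) or NM1 (-0.01). USP18, which removes ISG15 from proteins, and HERC5, the ligase that attaches it in human cells, had the same extremes, with NM7 highest (9.45 and 8.15) and NM1 lowest (6.51 and 4.19).

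Among the antiviral effectors, MX1, a GTPase that traps viral nucleocapsids, read 10.99, 6.76, 9.34, 8.76 and 7.86 in MET1 to MET5, against 6.93, 8.77 and 11.84 as the lowest, median and highest non-metastatic tumours. NM7 and MET1 were at the top and MET2 and NM1 at the bottom, with a difference of -0.30 ± 0.78 (SE; limma adjusted p = 0.83). Its neighbour MX2 read 8.01, 6.89, 7.84, 7.17 and 6.83 in the metastatic tumours, against 6.06 to 8.59 in the non-metastatic ones. IFI44L read 9.32, 6.73, 8.76, 8.69 and 7.22 in MET1 to MET5, against 6.87, 8.48 and 11.33 as the lowest, median and highest non-metastatic tumours, and the difference was -0.52 ± 0.72 (SE; limma adjusted p = 0.677). Its neighbour IFI44 read 8.85, 6.94, 8.49, 8.23 and 6.68, against 5.53, 7.10 and 10.25, and the difference was 0.40 ± 0.67 (SE; limma adjusted p = 0.735). NM7 was highest for all 4 of these genes.

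GBP1, a guanylate-binding protein that interferon-gamma induces strongly, had the largest positive difference of the representative probe sets, 0.83 ± 0.51 (SE; limma adjusted p = 0.32). It read 8.88, 6.75, 7.72, 9.10 and 6.02 in MET1 to MET5, against 5.52, 6.85 and 7.72 as the lowest, median and highest non-metastatic tumours. MET1 and MET4 stood above every non-metastatic tumour, and the other 3 lay within their range. The difference was 0.54 without MET1, 0.48 without MET4 and 1.25 without MET5. XAF1, a pro-apoptotic factor, read 8.65, 6.97, 7.97, 8.30 and 6.78 in MET1 to MET5, against 5.95, 7.18 and 8.43 as the lowest, median and highest non-metastatic tumours. Only MET1 was above the non-metastatic range for XAF1, and the difference was 0.65 ± 0.39 (SE; limma adjusted p = 0.32).

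RSAD2, the enzyme viperin, which makes a chain-terminating nucleotide, read 7.77, 7.56, 7.74, 7.47 and 7.80 in MET1 to MET5, against 6.66, 7.26 and 8.07 as the lowest, median and highest non-metastatic tumours. The metastatic tumours were close together inside the wider non-metastatic range, with a difference of 0.34 ± 0.21 (SE; limma adjusted p = 0.337). In the 9 samples of like spike-in signal the difference was -0.04. IFIT2, which binds viral RNA, read 8.37 in NM7, 6.91 in MET1 and at most 6.85 elsewhere. NM3 (9.23), NM7 (9.20), MET1 (9.13) and MET4 (9.09) were close together at the top for IFI35. ISG20, an RNA exonuclease, ran from 5.47 in MET2 to 7.06 in NM7.

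IFI6, a mitochondrial and endoplasmic reticulum protein that interferon induces, differed in one tumour. It read 7.87, 8.19, 7.47, 7.56 and 7.58 in MET1 to MET5, and 7.72, 8.16, 7.57, 7.81, 8.26, 7.73, 11.56 and 7.41 in NM1 to NM8. NM7 stood far above the next tumour, NM5, and the second probe set gave the same picture, with 11.38 in NM7 and at most 7.65 elsewhere. The group difference was -0.54 ± 0.56 (SE; limma adjusted p = 0.562), and -0.07 without NM7. MET1 and NM3, which were high for ISG15, MX1 and OAS1, were not high for IFI6.

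The class I chains showed no group difference past the threshold. B2M, the light chain of all class I molecules, read 13.22, 12.43, 13.32, 13.40 and 12.21 in MET1 to MET5, against 12.18, 12.99 and 13.54 as the lowest, median and highest non-metastatic tumours. The groups covered almost the same range, with a difference of 0.05 ± 0.26 (SE; limma adjusted p = 0.921). DLA88, the polymorphic classical class I heavy chain of dogs, read 12.35, 10.58, 12.04, 13.14 and 10.97 in MET1 to MET5, against 10.88, 11.81 and 12.65 as the lowest, median and highest non-metastatic tumours. MET4 lay above and MET2 below all non-metastatic tumours, and the difference was -0.06 ± 0.40 (SE; limma adjusted p = 0.934), with 0.09 in the 9 samples of like spike-in signal.

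The second DLA88 probe set fell into a bright and a dark class of tumours. It read 12.75, 3.46, 10.70, 13.10 and 11.37 in MET1 to MET5, and 1.48, 5.01, 9.85, 12.21, 10.25, 10.23, 11.58 and 1.74 in NM1 to NM8. MET2, NM1, NM2 and NM8 were at or below 5.01 and the other 9 tumours at or above 9.85, with none between. In the same 4 tumours the representative probe set read 10.58, 11.54, 12.29 and 10.88, and the 2 probe sets correlated at r = 0.60. The second differed between the groups by 2.48 ± 2.12 (SE; limma adjusted p = 0.482). Its dark values lay within the range of probe sets without target, 2.63 to 7.16, or below it in NM1 and NM8. The difference is therefore no measure of size. The standard deviation of the second probe set, 4.23, was reached by no other probe set of the array. DLA-64 and DLA-79, further class I heavy chains, read 6.89 to 10.48 and 7.67 to 10.31 in metastatic tumours and 6.83 to 9.29 and 6.80 to 9.31 in non-metastatic ones, with MET4 highest for both.

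**Figure D2:**
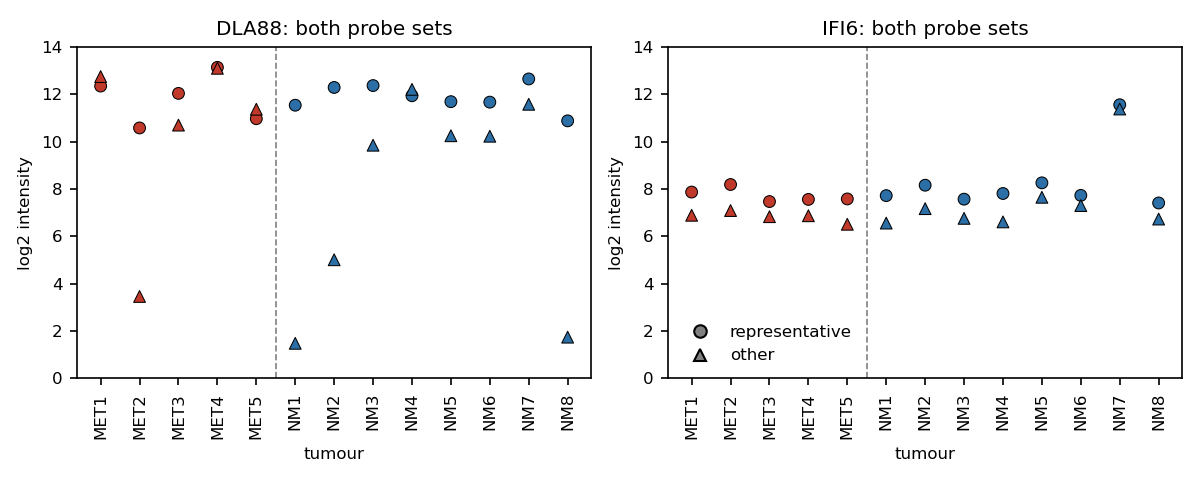
Log2 intensity of both DLA88 probe sets (left) and both IFI6 probe sets (right) in each tumour, metastatic in red left of the dashed line and non-metastatic in blue, with circles for the probe set of highest mean and triangles for the other. The second DLA88 probe set is at or below 5.01 in MET2, NM1, NM2 and NM8 and at or above 9.85 elsewhere, and both IFI6 probe sets stand apart in NM7.

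NLRC5, the transactivator of class I genes, varied little. It read 7.32, 7.0, 7.18, 7.70 and 7.04 in MET1 to MET5, against 7.09, 7.25 and 7.76 as the lowest, median and highest non-metastatic tumours. MET4 and NM2 were highest, and the difference was -0.09 ± 0.15 (SE; limma adjusted p = 0.737). The values lay near or above the highest reading of probe sets without target, 7.16, and well above the median of those readings, 4.45.

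TAP1, the transporter subunit that partners TAP2, read 10.41, 8.94, 9.85, 11.09 and 8.84 in MET1 to MET5, against 8.86, 9.70 and 11 as the lowest, median and highest non-metastatic tumours. The ranges coincided, with a difference of 0.01 ± 0.42 (SE; limma adjusted p = 0.992). TAP2 read 8.79 to 10.23 in metastatic and 8.82 to 10.39 in non-metastatic tumours. TAPBP, the tapasin that holds empty class I molecules at the transporter, read 9.07, 8.83, 9.15, 9.46 and 8.84 in MET1 to MET5, against 7.96, 8.91 and 9.46 as the lowest, median and highest non-metastatic tumours. The 3 non-metastatic tumours below 8.3 were NM1, NM3 and NM4, those without spike-in signal, and the difference was 0.38 ± 0.24 (SE; limma adjusted p = 0.342) over all samples and -0.02 in the 9 of like spike-in signal.

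The inducible subunits of the immunoproteasome also showed no group difference past the threshold. PSMB9, which is encoded beside TAP1, read 10.12, 8.26, 9.63, 11.23 and 8.32 in MET1 to MET5, against 7.50, 8.83 and 10.40 as the lowest, median and highest non-metastatic tumours, and the difference was 0.50 ± 0.56 (SE; limma adjusted p = 0.595). PSMB8 read 9.83, 7.77, 9.30, 9.50 and 7.28, against 6.23, 8.19 and 9.62, and the difference was 0.56 ± 0.54 (SE; limma adjusted p = 0.535). PSMB10 read 9.23, 8.36, 8.34, 9.64 and 8.19, against 8.02, 8.37 and 8.98, and the difference was 0.29 ± 0.25 (SE; limma adjusted p = 0.476). Without MET4 the differences of PSMB9 and PSMB10 were both 0.07, and that of PSMB8 was 0.29 without MET1 or NM1 and 0.93 without MET5. Without MET2 or MET5 that of PSMB9 was 0.81 and 0.80, and it was 0.29 without NM8; that of PSMB10 was 0.17 without MET1. MET4 was above every non-metastatic tumour for PSMB9 and PSMB10, and MET1 was above them for PSMB8 and PSMB10.

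Read by tumour, the 2 lists had different leaders. With each gene centred on its mean over the 13 tumours, the mean over the 23 interferon-induced genes was 0.75, -0.69, 0.24, 0.35 and -0.64 in MET1 to MET5. It was -0.96, 0.18, 0.65, -0.34, -0.13, -0.28, 1.5 and -0.62 in NM1 to NM8. NM7 was highest for 16 of the 23 genes and above the gene mean for 22 of them, and NM1 was lowest for 11. The same mean over the 11 class I genes was 0.62, -0.66, 0.25, 1.18 and -0.61 in MET1 to MET5. It was -0.66, 0.39, 0.10, -0.11, -0.08, -0.30, 0.70 and -0.82 in NM1 to NM8. MET4 was highest for 7 of the 11 class I genes, sharing its TAPBP value of 9.46 with NM7, and for 3 interferon-induced genes, IRF1, IFIH1 and GBP1. Both groups held tumours at the top and at the bottom of both lists, and MET2, MET5, NM1 and NM8 were the lowest 4 for each list.

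**Figure D3:**
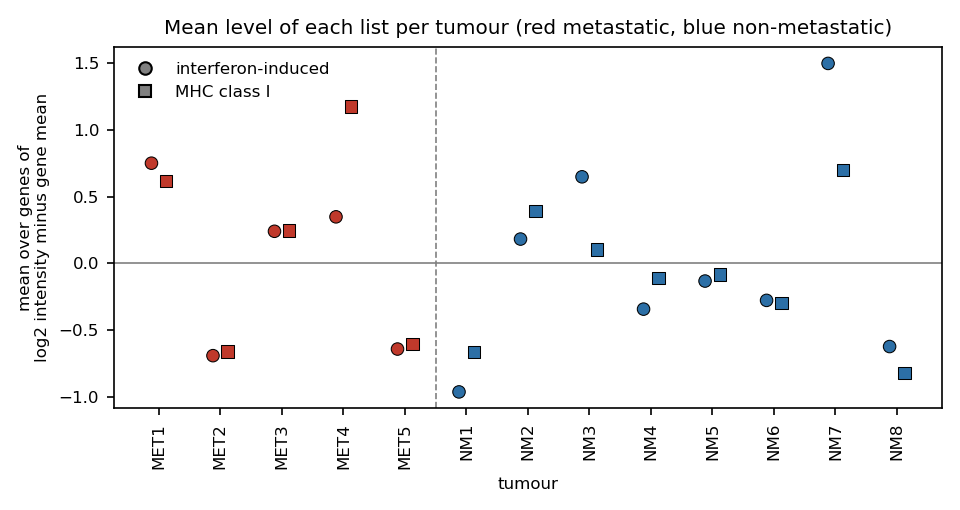
Mean over genes of log2 intensity minus the gene's mean over 13 tumours, for the interferon-induced genes (circles) and the class I genes (squares) in each tumour, metastatic in red left of the dashed line and non-metastatic in blue. NM7 is highest for the interferon-induced genes at 1.5 and MET4 for the class I genes at 1.18, and MET2, MET5, NM1 and NM8 are lowest for both.

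Members moved together between tumours. Over the 13 tumours the median Pearson r was 0.64 among the 253 pairs of interferon-induced genes, 0.68 among the 55 pairs of class I genes and 0.59 among the 253 pairs of 1 gene from each list, against 0.03 over all pairs of named genes. An r of at least 0.5 was reached by 69.2%, 72.7% and 60.5% of the pairs, against 14% of all pairs. These are descriptions with no test: all genes share the same 13 arrays, and pairs share genes. With values centred within each group the medians were 0.69, 0.70 and 0.64. In the 9 samples of like spike-in signal they were 0.73, 0.83 and 0.68, against 0 over all named genes. Within the 8 non-metastatic tumours they were 0.75, 0.51 and 0.64, and the 3 samples without spike-in signal were too few for a value of their own. Without NM7 and NM3 together, a choice made after the values were seen, the interferon-induced median was 0.54.

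The pairs held a core and a few genes outside it. Of the 23 interferon-induced genes, 18 had a median r of at least 0.5 with the rest of their list, led by ISG15 (0.85), IFI44L (0.81), OAS2 (0.81) and OAS1 (0.80). The exceptions were STAT2 (-0.28), RSAD2 (0.27), IRF1 (0.40), IFI6 (0.47) and EIF2AK2 (0.49). Within the samples of like spike-in signal 21 of the 23 reached 0.5, with RSAD2 at 0.57, IFI6 at 0.64 and EIF2AK2 at 0.78, and the exceptions were STAT2 (-0.31) and IRF1 (0.38). Of the interferon-induced genes, 6 had a higher median r with the class I genes than with their own list. They were IRF1 (0.69 against 0.40), GBP1 (0.81 against 0.63), IFIH1 (0.69 against 0.61), XAF1 (0.79 against 0.73), IFI35 (0.75 against 0.72) and STAT2 (-0.14 against -0.28). Of the 11 class I genes, 10 reached 0.5 with their own list, led by B2M (0.81), PSMB9 (0.81) and TAP1 (0.80), and TAPBP did not (0.45). All 11 reached it within the samples of like spike-in signal, TAPBP with 0.82. IRF9 and STAT2, which act in 1 complex, had the lowest r of all interferon-induced pairs, -0.77, at the flat STAT2 probe set.

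**Figure D4:**
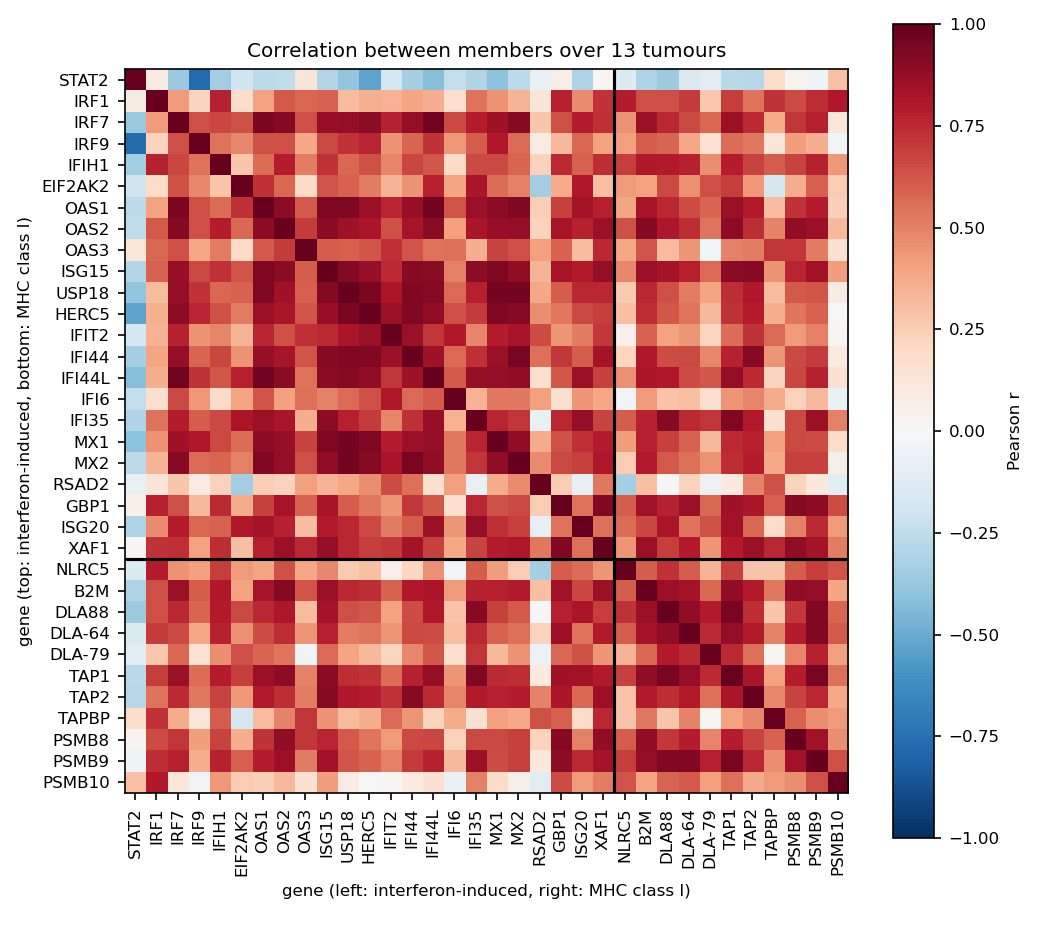
Pearson r over the 13 tumours between each pair of the 34 member genes at their representative probe sets, with black lines between the interferon-induced genes and the class I genes. Most cells are red within and between the lists. STAT2 and RSAD2 are mostly pale or blue, and PSMB10 is mostly pale against the interferon-induced genes (median r 0.18).

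Single pairs of a regulator and a target, or of genes that work together, were listed by name, and 14 of 16 were measured. Pearson r passed an adjusted p of 0.05 in 13 of the 14, by two-sided permutation tests adjusted over these 14, and in 10 of 14 within the samples of like spike-in signal and 6 of 14 within the non-metastatic tumours. By rho, 12 of the 14 passed over all tumours, 5 within the samples of like spike-in signal and 6 within the non-metastatic tumours. The share of all member pairs that would pass was not computed. An r of at least 0.5 was reached by 69.2% of interferon-induced, 72.7% of class I and 60.5% of between-list pairs. These counts therefore do not set the named pairs apart from other member pairs. NLRC5 with B2M and PSMB8 (0.60 and 0.61) lay near its class I median of 0.61, and IRF1 with TAP1 (0.69) at its class I median of 0.69. TAP1 and PSMB9, neighbours in the genome, gave r = 0.95 (rho = 0.92; permutation p = 1e-05, the smallest that 100000 permutations can give; adjusted p = 0.00014). Without the 2 tumours farthest from the TAP1 median, r was 0.93, and it was 0.95 (permutation p = 1.65e-05) in the 9 samples of like spike-in signal. ISG15 and its protease USP18 gave r = 0.92 (rho = 0.96; permutation p = 2e-05, adjusted p = 0.00014), and 0.84 without the 2 farthest tumours. IRF7 and ISG15 gave r = 0.87 (rho = 0.90; permutation p = 9e-05, adjusted p = 0.00042), and 0.78 without the 2 farthest. Across the lists, ISG15 and B2M gave r = 0.86 (rho = 0.92; permutation p = 0.0003, adjusted p = 0.00084), and 0.87 without the 2 farthest.

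**Figure D5:**
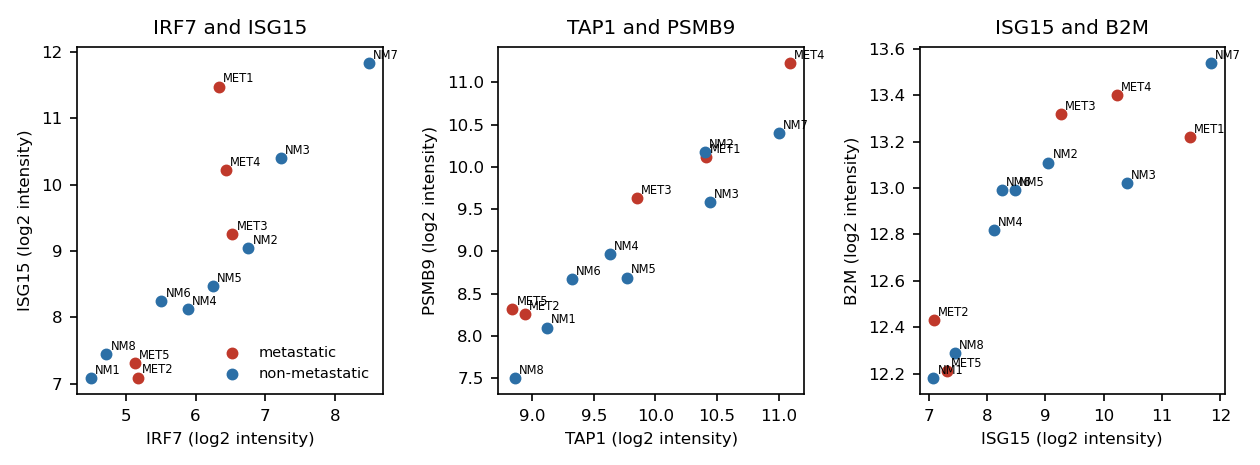
Log2 intensity of IRF7 and ISG15 (left), TAP1 and PSMB9 (middle) and ISG15 and B2M (right), each point 1 tumour, metastatic in red and non-metastatic in blue. Points of both groups run along the same rising trend, with r = 0.87, 0.95 and 0.86.

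B2M and DLA88, the 2 chains of a class I molecule, gave r = 0.86 (rho = 0.87; permutation p = 0.00029, adjusted p = 0.00084), and 0.90 without the 2 farthest tumours. MX1 and TAP1 gave r = 0.75 (rho = 0.78; permutation p = 0.00299, adjusted p = 0.00598), and 0.64 without the 2 farthest. In the 9 samples of like spike-in signal r was 0.91 for ISG15 and USP18, 0.86 for IRF7 and ISG15, 0.87 for ISG15 and B2M, 0.92 for B2M and DLA88 and 0.72 for MX1 and TAP1, whose rho of 0.75 did not pass there (permutation adjusted p = 0.0595). These 5 pairs, with TAP1 and PSMB9, were the 6 that passed within the non-metastatic tumours. IRF1 gave r = 0.78 with GBP1 (rho = 0.70; permutation p = 0.00172, adjusted p = 0.00401). It gave 0.69 with TAP1 (rho = 0.63; permutation p = 0.00705, adjusted p = 0.00987) and 0.74 with PSMB9 (rho = 0.64; permutation p = 0.00352, adjusted p = 0.00616). Without the 2 tumours farthest from the IRF1 median these were 0.69, 0.65 and 0.68, and in the 9 samples of like spike-in signal they were 0.77, 0.76 and 0.78. There rho was 0.58, 0.70 and 0.60 and did not pass (permutation adjusted p = 0.15, 0.0808 and 0.143), and r without the 2 farthest, MET4 and MET5, was 0.44, 0.54 and 0.56. Within the non-metastatic tumours they were 0.62, 0.46 and 0.52 and did not pass (permutation adjusted p = 0.154, 0.285 and 0.266). Without MET4 the r of IRF1 was 0.57 with TAP1 and 0.59 with PSMB9, and neither passed (permutation adjusted p = 0.0713 and 0.0675).

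NLRC5 gave r = 0.60 with B2M, 0.72 with DLA88 and 0.61 with PSMB8 (rho = 0.61, 0.71 and 0.62; permutation p = 0.0285, 0.00511 and 0.0277, adjusted p = 0.0307, 0.00795 and 0.0307). Without the 2 farthest tumours these were 0.60, 0.65 and 0.41. Those with B2M and PSMB8 did not pass within the samples of like spike-in signal, at r = 0.61 and 0.54 (permutation adjusted p = 0.0962 and 0.149). The pair with DLA88 passed there by r (0.77; permutation adjusted p = 0.0204) but not by rho (0.67; permutation adjusted p = 0.103). Within the non-metastatic tumours its r was 0.455 and did not pass (permutation adjusted p = 0.286). Leaving out 1 tumour ended the call with B2M for MET2 (r = 0.56), MET4 (0.54), MET5 (0.54) and NM1 (0.56), and the call with PSMB8 for MET4 (0.55), MET5 (0.56), NM1 (0.58) and NM2 (0.53). IRF9 and OAS1 gave r = 0.64 (rho = 0.56; permutation p = 0.018, adjusted p = 0.0229), with 0.62 without the 2 farthest and 0.49 without NM7, where the call ended. In the 9 samples of like spike-in signal it was 0.60 and did not pass (permutation adjusted p = 0.0965). Its rho did not pass (permutation adjusted p = 0.0565). STAT2 and MX1 were the pair that did not pass, with r = -0.41 (rho = -0.35; permutation p = 0.164, adjusted p = 0.164), and -0.09 without the 2 farthest tumours. This pair was read at the flat STAT2 probe set, which did not follow the other STAT2 probe sets, and those were not tested against MX1.

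Probe sets of 1 gene mostly told the same story. Of the 34 members, 19 had more than 1 probe set, and of the 34 further probe sets 23 correlated with the representative at r of at least 0.8 and 8 at under 0.5. Those 8 were the 4 of STAT2, the dim IRF9 probe set (r = 0.03), 1 of the 4 further OAS1 probe sets (0.11), 1 of TAP2 (0.30) and the second of NLRC5 (0.41). Several of these moved with the spike-in signal. Between the 3 non-metastatic tumours without it and the 4 with like signal, a comparison added after the data were seen, 6 of the 68 member probe sets (8.82%) passed limma's test, against 21.7% of all probe sets, and 9 of 68 had an unadjusted p under 0.05, against 37.3% of all. The 6 were the same TAP2 probe set (-1.22 ± 0.14, SE), the TAPBP representative (-0.99 ± 0.16), the same OAS1 probe set (-0.76 ± 0.12), RSAD2 (-0.68 ± 0.19), the second NLRC5 probe set (-0.47 ± 0.13) and the dim IRF9 probe set (0.64 ± 0.14), with limma adjusted p between 0.00376 and 0.0391. In NM1, NM3 and NM4 the missing spike-in signal and the tumours' own levels cannot be told apart.

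Other genes of interferon production, receptors, signalling and class I assembly were read from a list of 96, of which 66 were measured. None of the 66 passed limma's test at its representative probe set in either direction, with 12 (18.2%) at an unadjusted p under 0.05, against 23.7% of all probe sets. Of their 138 probe sets 1 passed, lower in metastatic tumours, against 4.9% of all probe sets. It belonged to SP100, a nuclear body protein that interferon induces, and read 6.11, 5.5, 5.62, 5.63 and 5.37 in MET1 to MET5, against 6.10 to 6.63 in the non-metastatic tumours, below 7.16 throughout. Its difference was -0.65 ± 0.15 (SE; limma adjusted p = 0.024), and that at the brighter SP100 probe set was -0.65 ± 0.20 (adjusted p = 0.078). IFNGR1, a chain of the interferon-gamma receptor, read 7.05, 7.24, 8.01, 7.04 and 7.09 in MET1 to MET5 and averaged 8.20 ± 0.56 (SD, n = 8) in non-metastatic tumours, a difference of -0.92 ± 0.27 (SE; limma adjusted p = 0.0666). IRF3, the factor that starts interferon production, differed by -0.61 ± 0.18 (SE; limma adjusted p = 0.0724). For IFNGR1 and IRF3 the differences in the samples of like spike-in signal were -0.80 and -0.60 (limma adjusted p = 0.146 and 0.194). The interferon gene IFNB1 differed by 0.47 ± 0.16 (SE; limma adjusted p = 0.107), with no value above 5.61. In the samples of like spike-in signal it differed by 0.28 (limma adjusted p = 0.249), and its lowest value, 4.53, was that of NM3 and NM4, which lack spike-in signal.

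Of these 66 genes, 15 had a median r of at least 0.5 with the interferon-induced members and 13 were highest in NM7. The shares of all named genes that do so were not computed, so these counts do not set the 66 genes apart. Of the pairs of 1 of these genes and 1 interferon-induced member, 25.3% reached an r of 0.5, against 14% of all pairs of named genes. PARP14, an ADP-ribosyltransferase, had 0.79, UBE2L6, the conjugating enzyme of ISG15, 0.74, the RNA sensor TLR3 0.72, TRIM22 0.71 and the chemokine CXCL10 0.70. CXCL10 read 10.71, 8.35, 8.18, 10.60 and 5.90 in MET1 to MET5, against 5.17 to 9.92 in the non-metastatic tumours, highest there in NM7.

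Markers of leukocytes and macrophages moved with the members. The median r over the 13 tumours was 0.45 with the interferon-induced and 0.53 with the class I members for 5 markers of leukocytes in common (PTPRC, CORO1A, LCP1, CD53 and LAPTM5), and 0.39 and 0.50 for 17 macrophage and myeloid markers. C1QA, C1QB and C1QC, the complement chains made by macrophages, had the highest values of the 17, 0.71, 0.68 and 0.72 with the interferon-induced members and 0.78, 0.73 and 0.77 with the class I members, and all 3 were highest in NM7. The lowest were those of MARCO, a scavenger receptor, at -0.25 and -0.18, and LYZ, lysozyme, had 0.09 and 0.31. The mean of the leukocyte markers was 7.62 to 9.18 in metastatic and 7.65 to 8.94 in non-metastatic tumours, and that of the macrophage markers was 7.97 to 9.62 and 8.06 to 9.37. Both means were lowest in MET2, MET5, NM1 and NM8, the 4 tumours with the lowest levels of both member lists. NM7 and MET4, the leaders of the 2 lists, stood at 8.49 and 8.60 for the leukocyte markers, below MET3, NM2, NM5, NM3 and NM4. For the macrophage markers MET4 was second to MET3, at 9.49 against 9.62, and NM7 stood at 9.12.

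T and NK cell markers had a median r of 0.16 and 0.27 with the 2 lists, and 13 of the 18 had means not above 7.16. An r of at least 0.5 was reached by 16.4% and 25.8% of their pairs, against 14% of all pairs of named genes. With the interferon-induced members single markers ran from -0.13 (LCK) to 0.57 (KLRD1). With the class I members they ran from -0.26 (NCR1) to 0.63 (GZMB). B and plasma cell markers had -0.04 and 0.07, endothelial markers 0.02 and 0.06, and mesenchymal markers -0.14 and -0.02. The endothelial markers had -0.31 and -0.42 in the 9 samples of like spike-in signal. No marker was listed at 0. At the representative probe sets, DCN (-1.29 ± 0.20, SE; limma adjusted p = 0.00429) and THY1 (-1.41 ± 0.37; limma adjusted p = 0.0425) of the mesenchymal list were lower in metastatic tumours, and 0 of the leukocyte and macrophage markers passed. DCN also passed in the 9 samples of like spike-in signal (limma adjusted p = 0.0346) and THY1 did not (limma adjusted p = 0.133). KRT8 of the epithelial list passed over all samples but not in those 9 (limma adjusted p = 0.0468 and 0.0719), and it read 0.66 to 2.28 in metastatic tumours, below the lowest value of probe sets without target, 2.63, so no size is given. The part that these cells have in the member levels was not tested.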

How the data were processed

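RNA of 13 untreated primary canine soft tissue sarcomas was, per the labels' protocols, extracted with a silica-column kit, biotin-labelled in 1 cycle from the 3′ end and hybridised to an Affymetrix canine array. The authors deposited a single processed table, whose values, from 0 to 14.33, were read here as log2 intensities. How they were computed (software, background correction, normalization) is not given in the sources used here, and they were used as deposited. Of 43035 probe sets 111 controls were left out. In the platform annotation 29264 probe sets had 1 symbol, 439 several and 13332 none. The gene IDs of 29 of the 34 measured members were found in the RefSeq table of assembly UU_Cfam_GSD_1.0, used for names and neighbours only. No coordinates or sequences are given.

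Differences are metastatic minus non-metastatic, fitted per probe set over all 42924 with limma 3.58.1 (R 4.3.3; lmFit and eBayes on the group alone, a two-sided test) and adjusted after Benjamini-Hochberg at a threshold of 0.05. The fit was tested on simulated data. The probe set with the highest mean stood for its gene. Gene pairs were tested by two-sided permutation (100000 resamples; all pairings for 8 or 9 samples; scipy 1.17.1). Samples were classed by spike-in signal: a 3′ mean above 6 and a 3′ minus 5′ gap under 2. Group labels share replicate numbers 1 to 5, but same-numbered samples did not deviate together (correlations -0.01 to 0.08), so no pairing was used. The number of arrays limits the precision. The members, lists and pairs were chosen with earlier results of these data known. Given with every metastatic value and at least the lowest, median and highest non-metastatic values were 14 measured members listed by symbol, the 6 others with the smallest p and the 4 with the largest spread, 2 of which were already named. Alternatives were quantile normalization, a 3′ minus 5′ ACTB covariate, a replicate block, an intensity trend, a filter on dim probe sets, the mean of all probe sets of a gene, rank correlation, and leaving out each sample.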

Additional observations from a re-analysis of the deposited data

Results flagged for a closer look

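Of 136 groups of 4 to 10 values examined, 5 held a sample whose gap to its nearest neighbour was large against the group's range. Chance gives such a gap in about 1 of 20 groups, and 5 of 136 is no larger a share. The groups share the same arrays and some share a gene, so this count does not judge any single gap. IFI6 in NM7 read 11.56, with 8.26 as the next non-metastatic tumour, and its second probe set read 11.38 there, with 7.65 next. IFIT2 in NM7 read 8.37, with 6.85 next. The second DLA88 probe set read 3.46 in MET2, with 10.70 as the next metastatic tumour. A dim STAT2 probe set read 6.10 in MET4, with 6.50 next.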

How the results depend on the processing

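No member probe set passed in any alternative: 0 of 68 with quantile normalization, the samples of like spike-in signal, the ACTB covariate, an intensity trend and each of 13 samples left out (0 to 0), and 0 of 53 after the filter on dim probe sets, with the smallest adjusted p between 0.0564 and 0.237. The replicate block gave 0 calls too, while calls over all probe sets numbered 733, against 2104 without it. Same-numbered samples correlated at most at 0.08, and 1 of 5 numbers matched its own best. With the block MX1 differed by 0.12 and TAP1 by -0.046. Leaving out 1 sample gave median differences of -0.32 to 0.18 for the interferon-induced and 0.05 to 0.44 for the class I genes, and median r of 0.55 to 0.68, 0.58 to 0.72 and 0.57 to 0.63 (interferon-induced, class I, between). The median r moved to 0.75 for the interferon-induced genes and to 0.51 for the class I genes in non-metastatic tumours only, and to 0.83 (class I) and 0.68 (between) in samples of like spike-in signal. Passing pairs fell to 6 in non-metastatic tumours only and were 9 to 13 with 1 sample left out. Among the members described singly, signs turned, all short of the threshold, with quantile normalization for OAS1 (0.0259) and DLA88 (0.11), with the ACTB covariate for DLA88 (0.0528), and in samples of like spike-in signal for RSAD2 (-0.0445), B2M (-0.0365), DLA88 (0.0935), TAPBP (-0.015) and EIF2AK2 (0.054). In that setting 10 of the 34 members turned sign, the others being IFIT2, OAS2, OAS3, IFIH1 and IFI35. With 1 sample left out the differences ran from -0.0525 to 0.39 (IRF1), -0.49 to 0.0809 (IRF7), -0.36 to 0.74 (ISG15), -0.87 to 0.19 (MX1), -0.38 to 0.21 (OAS1), -0.0725 to 0.23 (B2M), -0.31 to 0.26 (TAP1) and -0.39 to 0.25 (DLA88). Without DLA88 the class I median difference was 0.34. The causes were not tested.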

Other observations

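Genes outside the list were ranked by their correlation with the mean profile of each list over the 13 tumours, as a description chosen after the values were seen. Nearest to the interferon-induced profile were LOC488947 (r = 0.97), HERC6 (0.95), PARP14 (0.92), UBE2L6 (0.87), LOC478984 (0.86), DDX60 (0.86), SAMD8 (0.85), LGALS9 (0.85) and RTP4 (0.85). HERC6 ran from 5.96 to 10.05 and LOC488947 from 4.16 to 10.84, both highest in NM7. Of the 15 nearest, 5 were on the wider list of interferon pathway genes, which held 66 measured genes among 15115 named genes.

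Among the nearest to the class I profile were class II genes, whose products present peptides to helper T cells: DLA-DQB1 (0.94), DLA-DQA1 (0.91), HLA-DRB1 as the platform names it (0.90) and DLA-DRA (0.87), with the class II invariant chain CD74 at 0.85. DLA-DQB1 ran from 9.12 to 11.83 and DLA-DRA from 11.15 to 13, both highest in MET4, which also led the class I genes. TNS3 (0.92), SMPDL3A (0.89) and the macrophage complement chain C1QC (0.88) were also among the nearest 15.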
